A study of Mus musculus with 31 samples.

Results

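The genes described here are 47 genes of actin remodelling and cell motility, taken by gene symbol from a list out of the 55401 genes of the count tables. All 47 were found in each table and passed the count minimum in every comparison. They comprise 2 actins, 8 genes of the Arp2/3 complex, 5 WASP and WAVE genes, 7 small GTPases and ROCK kinases, 3 DOCK and ELMO genes, 6 genes of filament turnover, 2 membrane linkers, 6 genes of bundling and elongation, 2 myosins, 3 focal adhesion adaptors and 3 leukocyte actin adaptors.

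RNA-seq was carried out on 31 libraries of 13-month-old mice on a C57BL/6J background. The APP/PS1 line (A+) carries the transgenes APPswe and PS1dE9, driven by the promoter of mouse prion protein, and was crossed with a CRISPR/Cas9 knock-in (KI) line of the P522R variant of phospholipase C gamma 2 (*Plcg2*). CD11b+ microglia were pulled with magnetic beads from the dissociated whole brain of female A-/Pwt/wt (n = 7), A+/Pwt/wt (n = 4) and A+/Pki/ki mice (n = 4), and of male WT (n = 3) and KI mice (n = 4), both without the transgenes. Bulk temporo-occipital cortex came from female A-/Pwt/wt (n = 1), A+/Pwt/wt (n = 4) and A+/Pki/ki mice (n = 4). The beads bind every CD11b+ cell, the transgenes are not confined to microglia, and 1 KI line was used. The labels give each library its own mouse number within a tissue.

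Actin is assembled from monomers into filaments, and a cell moves, engulfs or scans its surroundings by building filaments behind the membrane at its front and pulling on them at its rear. Small GTPases switch this on: Rac and Cdc42 act through the WAVE and WASP proteins on the Arp2/3 complex, which starts branched filaments, and RhoA acts through the ROCK kinases on myosin. Microglia use this machinery to move their processes and to engulf debris, and IBA1, the protein by which they are commonly stained, is itself an actin-binding protein, encoded by *Aif1*.

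The libraries held 16.2 to 25.1 M counts in CD11b+ microglia and 25.2 to 43.1 M in cortex. Levels are given as CPM (counts of a gene for each M counts of its library), scaled by TMM over all 31 libraries, and the values of a group follow its mouse numbers in rising order: 331, 367, 375 and 380 for A+/Pwt/wt, 244, 335, 394 and 405 for A+/Pki/ki, 94, 101 and 102 for male WT, and 84, 104, 136 and 139 for male KI CD11b+ libraries. In cortex, the order is 236, 257, 259 and 329 for A+/Pwt/wt and 184, 203, 216 and 222 for A+/Pki/ki. The 7 A-/Pwt/wt CD11b+ libraries are given by their range and median. Number 236 is given both to a CD11b+ library labelled A-/Pwt/wt and to a cortex library labelled A+/Pwt/wt, and the labels were used as given. Microglial markers had a mean level of 10.1 to 11.2 log2 CPM in the CD11b+ and 5.11 to 6.11 log2 CPM in the cortex libraries.

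The CD11b+ libraries also differed in markers of other cells. The mean log2 CPM of 12 neuron markers (neuron score) ranged from 2.85 to 7.30, and mitochondrial genes held 3.45% to 24.5% of the counts. Mouse 223 (A-/Pwt/wt) had the highest and mouse 405 (A+/Pki/ki) the lowest value of both measures. Among the A+/Pki/ki libraries, mouse 335 stood apart, with a neuron score of 6.25 against 2.85 to 4.33 in the other 3 and a neutrophil marker score of 7.00 against 1.48 to 5.18.

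The list score, the mean log2 CPM of the 47 genes, summarises their level in a library. It was 5.46 to 5.80 in the cortex and 7.43 to 8.06 in the CD11b+ libraries. In females, it was 7.43 to 7.90 in A-/Pwt/wt (median 7.70), 7.58, 7.79, 7.75 and 7.75 in A+/Pwt/wt, and 7.91, 7.65, 8.06 and 8.04 in A+/Pki/ki mice, so that 3 of the 4 A+/Pki/ki libraries were above all A+/Pwt/wt libraries and mouse 335 was below 3 of them. The mean log2 CPM of the microglial markers had the same order but for mice 394 and 405, which changed places. It was 10.10, 10.80, 10.63 and 10.62 in A+/Pwt/wt and 10.82, 10.28, 11.04 and 11.07 in A+/Pki/ki mice. In males, the list score was 7.92, 7.93 and 7.92 in WT and 7.78, 7.88, 7.64 and 7.71 in KI mice, with no overlap between the groups. The score is given as a description, without a test.

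**Figure D1:**
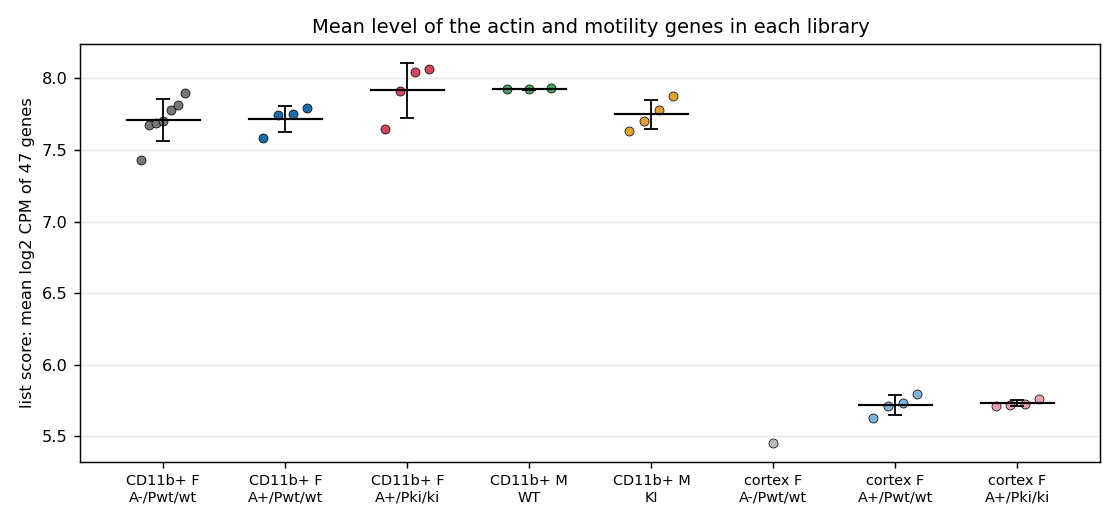
The mean log2 CPM of the 47 genes (y axis) is plotted for each library (points) by tissue, sex (F, M) and genotype (x axis), with the group mean and SD as lines. The CD11b+ libraries lie between 7.43 and 8.06 and the cortex libraries between 5.46 and 5.80, and the male WT and KI groups do not overlap.

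The list score tended to be lower where the neuron score and the mitochondrial share were higher. The lowest list score, 7.43, belonged to mouse 223, which had a neuron score of 7.30 and 24.5% mitochondrial counts, and the highest 2, 8.06 and 8.04, to mice 394 and 405, with neuron scores of 3.24 and 2.85 and 3.77% and 3.45% mitochondrial counts. The neuron score was 3.06 to 3.67 in male WT and 4.62 to 5.82 in male KI libraries, 4.96 to 5.97 in A+/Pwt/wt and 2.85 to 6.25 in A+/Pki/ki libraries. The share of neuron RNA in any difference of the members between groups was not tested.

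**Figure D2:**
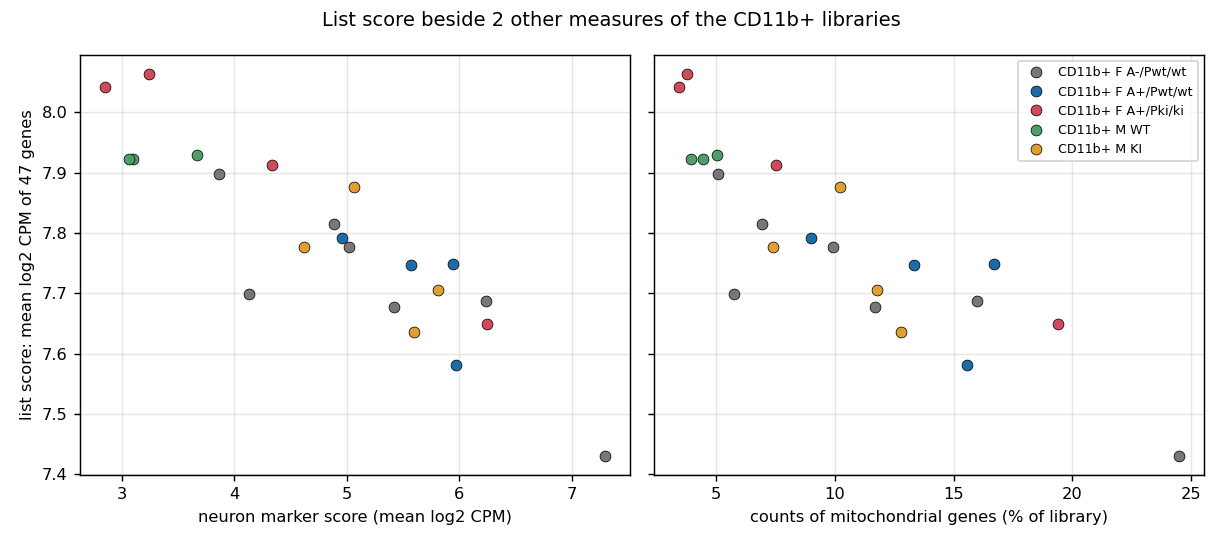
The list score of the 22 CD11b+ libraries (y axis, mean log2 CPM) is plotted against the mean log2 CPM of 12 neuron markers (left x axis) and against the percentage of counts from mitochondrial genes (right x axis), 1 point per library, coloured by group. The library with the lowest list score, 7.43, has the highest value on both x axes, 7.30 and 24.5%.

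To see where the genes are expressed, CD11b+ microglia were compared with cortex in A+/Pwt/wt females (n = 4 and 4). Of the 47 members, 40 were called higher in CD11b+ microglia and 3 lower at an FDR of 0.05, where 37.7% of 18541 tested genes were called higher and 40.2% lower. The log2FC was above 0 for 41 members, against 48.6% of all tested genes, and the groups did not overlap for 39 members higher and 3 lower in CD11b+ microglia, where this held for 33.3% and 39.8% of the tested genes. The median log2FC of the members was 1.62, and that of all tested genes −0.06. *Cfl1*, *Gsn*, *Rock2* and *Diaph1* were not called. Cortex contains all cell types, so that a lower level there can come from fewer cells that express a gene or from less RNA per cell, which cannot be told apart in bulk samples. RNA extraction also differed between the tissues.

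**Figure D3:**
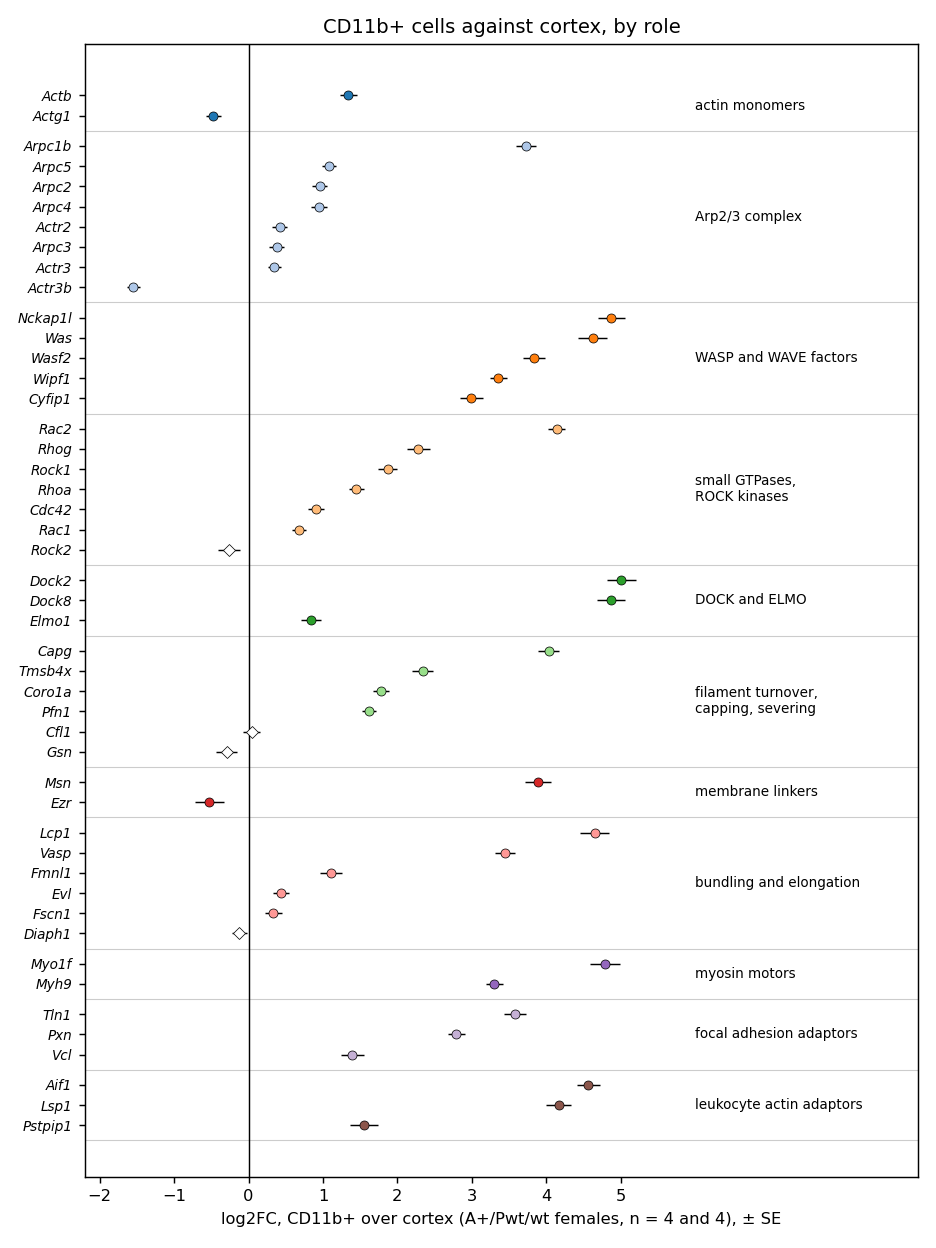
The log2FC of each member in CD11b+ microglia over cortex of A+/Pwt/wt females (x axis, with SE bars, n = 4 and 4) is plotted by role (y axis), with filled circles for genes called at an FDR of 0.05 and open diamonds for the others. Members of 1 role spread widely, as from −1.55 for *Actr3b* to 3.73 for *Arpc1b* in the Arp2/3 complex, whereas all 5 WASP and WAVE genes lie between 2.99 and 4.88.

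The comparison of A+/Pki/ki with A+/Pwt/wt CD11b+ microglia addresses the effect of the KI alleles in mice with amyloid pathology. None of the 47 members was called by edgeR, and neither was any other gene (0.0% of 17039), while 575 genes, 3.37%, had an unadjusted p under 0.05. Among the members, 8 had an unadjusted p under 0.05 and a log2FC above 0, and 1 below 0. The log2FC was above 0 for 43 of 47 members, against 50.7% of all tested genes, with a median of 0.20 against 0.00. With 1 library left out, it was above 0 for 41 to 43 members with a median of 0.14 (without mouse 331) to 0.33 (without mouse 335), and 0 members were called. In the same comparison, the log2FC of all 8 microglial markers was above 0 (median 0.22). That of all 12 neuron and all 8 astrocyte markers was below 0 (median −0.87 and −0.67). All 6 neutrophil markers had a log2FC above 0 (median 2.48) and an unadjusted p under 0.05 in edgeR. Their summed level was 42.5, 95.4, 124 and 113 CPM in A+/Pwt/wt and 416, 1619, 34.9 and 198 CPM in A+/Pki/ki mice. From these lists, 0 markers were called, and the part of these cells in the members' values was not tested. DESeq2's Wald test called 1 member, *Pstpip1* (adjusted p = 0.046), and 7 genes in all. All 4 A+/Pki/ki libraries were above all 4 A+/Pwt/wt libraries for 9 members, where this held for 1.68% of the tested genes, and below them for 1 member, where it held for 0.745%. The 9 were *Actb*, *Actg1*, *Actr3*, *Coro1a*, *Pfn1*, *Pstpip1*, *Rac2*, *Rhoa* and *Rhog*, and the 1 was *Actr3b*. With DESeq2 size factors or TMM over the compared libraries, *Rhoa* overlapped, which left 8 (242 and 215 of the 17039 tested genes).

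In cortex of the same genotypes, 0 members were called (0.0% of 18640 tested genes called, 514 genes or 2.76% with an unadjusted p under 0.05, 11 genes called by DESeq2). The log2FC was above 0 for 25 of 47 members, against 49.3% of all tested genes, and ranged from −0.25 to 0.28 with SEs of 0.06 to 0.20. The groups did not overlap for 0 members, where A+/Pki/ki was above A+/Pwt/wt for 1.15% and below for 0.751% of the tested genes. By unadjusted p, *Fmnl1*, *Ezr* and *Pstpip1* came first, and 1 member had an unadjusted p under 0.05.

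In males without the transgenes, KI was compared with WT CD11b+ microglia. Of the 47 members, 7 were called lower in KI mice and 1 higher, where 5.26% of 16373 tested genes were called lower and 11.1% higher. The 7 were *Dock8*, *Elmo1*, *Nckap1l*, *Dock2*, *Wasf2*, *Myo1f* and *Fmnl1*, and the 1 was *Actr3b*. The log2FC was below 0 for 41 members, with a median of −0.20 against 0.00 over all tested genes, and above 0, as for 49.8% of all tested genes, for 6 (*Actr3b*, *Ezr*, *Vcl*, *Gsn*, *Cfl1* and *Arpc3*). KI and WT libraries did not overlap for 18 members lower in KI, where this held for 15.4% of the tested genes, and for 1 member higher in KI, where it held for 15.3%. In the same comparison, all 12 neuron and all 8 astrocyte markers were called higher in KI mice, with a median log2FC of 2.12 and 1.16, and their summed level was 214 to 311 CPM in WT and 687 to 1592 CPM in KI mice for neurons, and 605 to 761 CPM in WT and 1035 to 2194 CPM in KI mice for astrocytes. Of 6 oligodendrocyte markers, 3 were called higher, with a summed level of 18546 to 23272 CPM in WT and 26493 to 61016 CPM in KI mice, and the mitochondrial share was 3.97% to 5.02% in WT and 7.40% to 12.8% in KI mice, without overlap in either. Of 8 microglial markers, 1 was called lower, with a median log2FC of −0.42. No neuron marker was at 0 in a CD11b+ library, and the part of the other cells in the members' differences was not tested. The calls depended on single libraries, and so did those over all tested genes. Without WT mouse 102, 0 members were called, where 0.685% of all tested genes were called lower and 4.84% higher. Without WT mouse 94 or 101, only *Actr3b* was called (0.608% and 0.704% of all tested genes lower, 6.28% and 6.93% higher). Without KI mouse 139, only *Actr3b* and *Elmo1* were called (1.76% lower and 6.61% higher). Without KI mouse 136, *Actr3b* was called with 3 lower (3.72% lower and 7.24% higher). Without KI mouse 104, 26 were called lower and 4 higher, where 13.3% of 16242 tested genes were called lower and 20.2% higher.

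**Figure D4:**
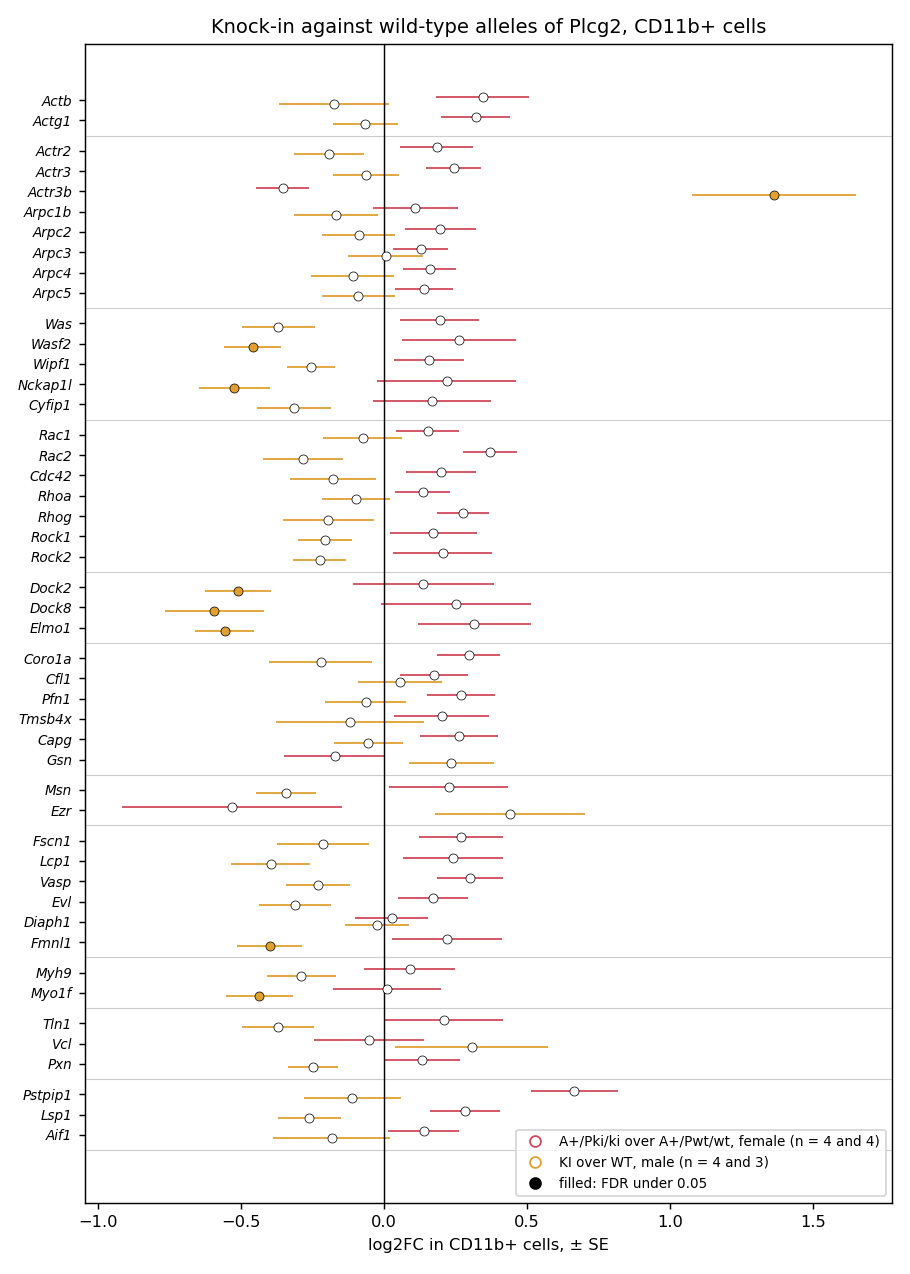
The log2FC of each member (x axis, with SE bars) is plotted for A+/Pki/ki over A+/Pwt/wt females (red, n = 4 and 4) and KI over WT males (yellow, n = 4 and 3), both in CD11b+ microglia, with filled points for an FDR under 0.05. The female values lie above 0 for 43 of 47 members and none is filled, and the male values lie below 0 for 41 members, 7 of them filled, with *Actr3b* filled at 1.36.

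The difference between both KI effects was tested in a joint fit. No member was called and no other gene (0.0% of 17619; 4664 genes or 26.5% with an unadjusted p under 0.05, 18 of the members below 0 and 1 above 0 among them), while DESeq2 called 7 members with a lower and 1 with a higher KI effect in males, and 1185 genes in all. The log2FC was above 0 for 4 members, against 51.0% of all tested genes. Without A+/Pki/ki mouse 335, edgeR called 28 members lower and 2 higher, where 15.6% of 17495 tested genes were called lower and 19.9% higher. Sex, transgenes and batch tag all differ between the mice of both effects and cannot be told apart.

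Between A+/Pwt/wt and A-/Pwt/wt CD11b+ microglia (n = 4 and 7), 1 member was called higher, *Capg*, and 0 lower, where 1.01% of 17355 tested genes were called higher and 0.282% lower. Between A+/Pki/ki and A-/Pwt/wt microglia (n = 4 and 7), again *Capg* was called higher and 0 members lower, where 1.35% of 17446 were called higher and 0.287% lower. Both comparisons share the 7 A-/Pwt/wt libraries. The log2FC was above 0 for 19 and 36 members, against 44.6% and 48.4% of all tested genes, with a median of −0.02 and 0.19 (−0.03 and −0.01 over all tested genes). A+/Pwt/wt was above A-/Pwt/wt without overlap for *Capg* and *Actr3b* (2.08% of the tested genes) and below for *Actb* and *Actg1* (1.43%), and A+/Pki/ki was above A-/Pwt/wt for *Capg* (2.52%) and below for 0 members (1.29%). The column names carry one batch tag for all A+ and another for all A- females, so that the transgenes and the batch cannot be told apart.

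The actins are the monomers themselves. *Actb*, β-actin, lies at chr5:142903115-142906754 (GRCm38), and *Actg1*, γ-actin, at chr11:120345690-120348542, both on the minus strand. Per kb of exon, *Actb* had the second highest level of the members in both tissues, with a mean of 977 CPM per kb in A+/Pwt/wt CD11b+ microglia and 405 CPM per kb in A+/Pwt/wt cortex. *Actb* and *Tmsb4x* together made up 27.4% to 40.2% of the members' summed CPM in CD11b+ libraries. *Actb* was 2777 to 4328 CPM (median 3593 CPM) in A-/Pwt/wt, 2562, 2582, 2730.2 and 2591 CPM in A+/Pwt/wt and 3087, 2828, 4081 and 3676 CPM in A+/Pki/ki CD11b+ microglia. All A+/Pwt/wt values were under the A-/Pwt/wt and the A+/Pki/ki values, yet neither difference was called by edgeR (log2FC −0.46 ± 0.18, adjusted p = 0.325 for A+/Pwt/wt over A-/Pwt/wt, and log2FC 0.35 ± 0.16, adjusted p = 0.853 for A+/Pki/ki over A+/Pwt/wt). DESeq2's test called the first difference (adjusted p = 0.0218). The separation of *Actb* from A-/Pwt/wt was absent under other scalings of the libraries. In males it was 3045, 3562 and 3072 CPM in WT and 2875, 3587, 2528 and 2449.6 CPM in KI mice, which overlapped (log2FC −0.17 ± 0.19, adjusted p = 0.559).

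*Actg1* was 1 of the 3 members called lower in CD11b+ microglia than in cortex, with 486, 449.8, 518 and 498 CPM against 727, 725, 709.9 and 675 CPM in A+/Pwt/wt mice (log2FC −0.47 ± 0.10, adjusted p = 0.0011), while *Actb* was called higher there (log2FC 1.34 ± 0.12, adjusted p = 1.20e-06). The ratio of *Actg1* to *Actb* CPM was 0.174 to 0.192 in CD11b+ microglia and 0.605 to 0.691 in cortex of these mice. In CD11b+ microglia *Actg1* was 588 to 802 CPM (median 634 CPM) in A-/Pwt/wt and 560.5, 556, 743 and 643 CPM in A+/Pki/ki mice, so that the A+/Pwt/wt libraries were below both groups without overlap, with no call in edgeR (log2FC −0.44 ± 0.13, adjusted p = 0.18 for A+/Pwt/wt over A-/Pwt/wt). Without mouse 223 edgeR called *Actg1* (adjusted p = 0.0488), and DESeq2's test called it with all libraries (adjusted p = 0.00794). Of its 100-base exon windows, 29.9% also occur in transcripts of other genes, such as *Gm12715* and *Gm8399*, and the count of uniquely mapped reads is uncertain to that extent.

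Promoters of 37 of the 47 members, 46 in all, were found in the RefSeq table of GRCm38.p6, each a window around the start of the gene. The other 10 had no entry and were not searched: *Actb*, *Actr3b*, *Nckap1l*, *Cyfip1*, *Rac1*, *Rac2*, *Rock1*, *Diaph1*, *Pxn* and *Lsp1*. A CArG box, the motif of serum response factor, which controls many cytoskeletal genes, occurred in 3 of the 46 promoters (*Actg1*, *Arpc4* and *Vcl*) and in 1.63% of all 32851 promoters. They are printed because this motif marks a known group of actin genes, upstream of the start and 5′ to 3′ on the gene's strand, with the motif in capitals:
Actg1, chr11:120348556-120348605, minus strand: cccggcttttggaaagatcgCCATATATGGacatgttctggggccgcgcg
Arpc4, chr6:113377863-113377892, plus strand: CCTAATTTGGtgcccaacctgaggtcgggc
Vcl, chr14:20929151-20929200, plus strand: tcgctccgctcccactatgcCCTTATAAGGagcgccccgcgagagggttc
A match is a run of letters and not a shown binding site. None of the 3 genes was called between genotypes by edgeR with all libraries, with a log2FC of 0.32 ± 0.12, 0.16 ± 0.09 and −0.05 ± 0.19 for A+/Pki/ki over A+/Pwt/wt CD11b+ microglia. Other settings called *Actg1* for A+/Pwt/wt over A-/Pwt/wt, as given above. For male KI over WT without mouse 104, edgeR called *Arpc4* lower (adjusted p = 0.0386) and *Vcl* higher (adjusted p = 0.00736).

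The Arp2/3 complex starts a branch on the side of a filament. Its core actin-like subunits *Actr2* and *Actr3* and the subunits *Arpc2*, *Arpc3*, *Arpc4* and *Arpc5* were called higher in CD11b+ microglia than in cortex, but by little, with a log2FC of 0.35 (*Actr3*) to 1.08 (*Arpc5*). *Arpc1b*, the form of the ARPC1 subunit that prevails in blood cells, differed far more, with 311, 349, 338 and 336 CPM in CD11b+ microglia and 27.2, 30.8, 25.7 and 21.7 CPM in cortex (log2FC 3.73 ± 0.13, adjusted p = 3.34e-09). In CD11b+ microglia of females, it was 191 to 349.7 CPM (median 331 CPM) in A-/Pwt/wt and 366, 267, 422 and 425 CPM in A+/Pki/ki females, where the value of mouse 335 was below and the other 3 were above all A+/Pwt/wt values (log2FC 0.11 ± 0.15, adjusted p = 0.857). In males it was 391, 388 and 389.6 CPM in WT and 326, 442, 294 and 327 CPM in KI mice, with mouse 104 above and the other 3 below the WT values (log2FC −0.17 ± 0.15, adjusted p = 0.456). It was called lower in male KI mice by edgeR without mouse 104 (adjusted p = 0.0193). Exons of *Pdap1* on the other strand overlap 18.2% of its exon length.

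*Actr3b*, a paralogue of *Actr3* that is abundant in brain, behaved unlike the rest of the complex. It was called lower in CD11b+ microglia than in cortex, with 28.0, 29.4, 27.4 and 31.4 CPM against 92.1, 85.4, 93.4 and 84.7 CPM in A+/Pwt/wt mice (log2FC −1.55 ± 0.09, adjusted p = 5.10e-08). In CD11b+ microglia it was 3.22 to 22.0 CPM (median 9.06 CPM) in A-/Pwt/wt, 22.5, 23.7, 25.1 and 21.9 CPM in A+/Pki/ki, 4.02, 2.82 and 2.73 CPM in male WT and 6.31, 6.92, 7.27 and 12.6 CPM in male KI mice. All A+/Pki/ki values were below all A+/Pwt/wt values, without a call (log2FC −0.35 ± 0.09, adjusted p = 0.853), and all male KI values were above all male WT values, with a call (log2FC 1.36 ± 0.29, adjusted p = 0.0142). All A+/Pwt/wt values were above the 7 A-/Pwt/wt values, also without a call in edgeR (log2FC 1.53 ± 0.41, adjusted p = 0.121, but 0.0257 without mouse 223 and 0.0239 in DESeq2's test), and 3 of the 4 A+/Pki/ki values were above that range (log2FC 1.21 ± 0.43, adjusted p = 0.21). The male minus the female KI effect was 1.74 ± 0.28 on the log2 scale (adjusted p = 0.138 with edgeR and 9.02e-05 with DESeq2).

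Within the A-/Pwt/wt group, *Actr3b* varied more than any other member (CV 67.9%, n = 7), and its highest value belonged to mouse 223 and its lowest to mouse 245, with neuron scores of 7.30 and 4.14. The lowest neuron score of the group, 3.86, belonged to mouse 242, with 4.21 CPM of *Actr3b*. Neuron markers were also higher in male KI than in male WT libraries, as given above, and the part of neuron RNA in the call was not tested. The neuron score was 4.96 to 5.97 in A+/Pwt/wt and 3.86 to 7.30 in A-/Pwt/wt females. The part of neuron RNA in the *Actr3b* values of these groups was not tested, and the groups also differ in batch tag. The ratio of *Actr3b* to *Actr3* was 0.107 to 0.126 in A+/Pwt/wt, 0.0771 to 0.0864 in A+/Pki/ki and 0.0123 to 0.0949 in A-/Pwt/wt CD11b+ microglia, and 0.427 to 0.467 in A+/Pwt/wt cortex.

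**Figure D5:**
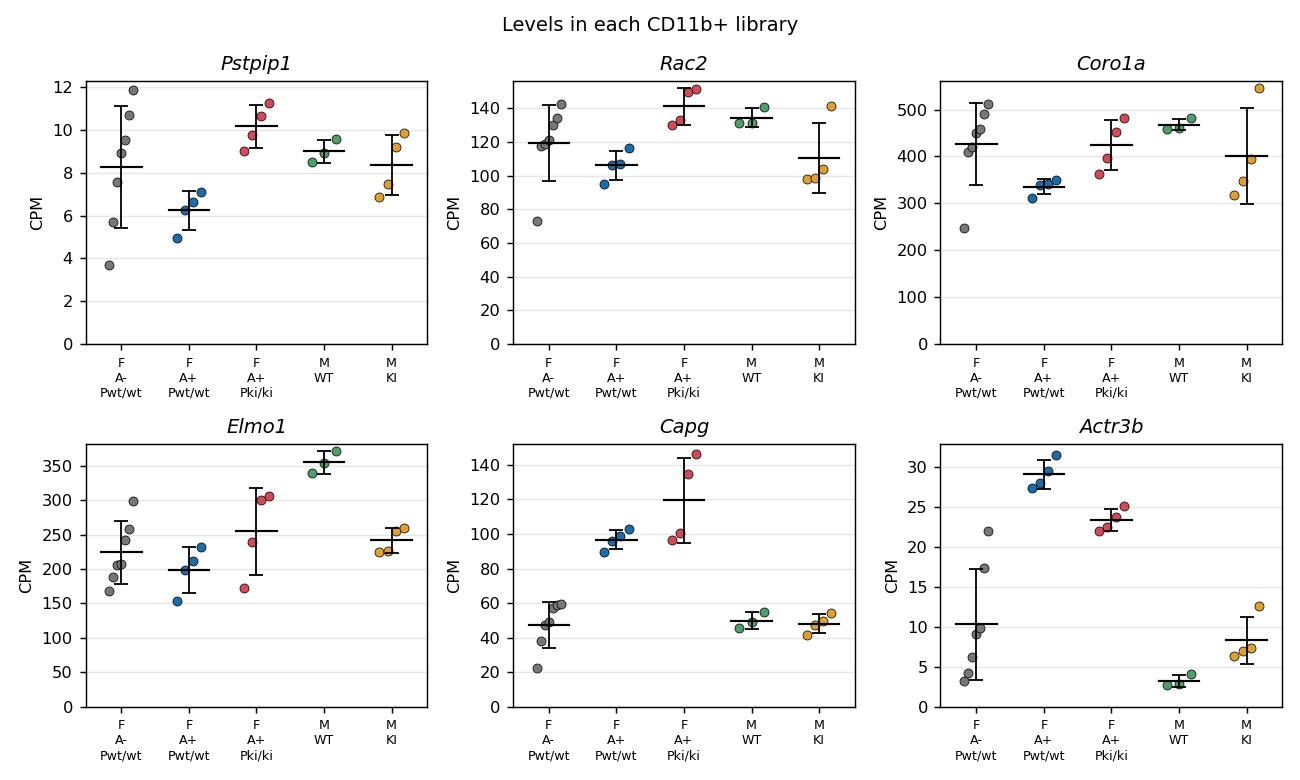
CPM of 6 members (y axes, from 0) in each of the 22 CD11b+ libraries (points) is plotted by sex (F, M) and genotype (x axis), with the group mean and SD as lines. *Capg* is higher in both A+ groups, with 89.6 to 146 CPM, than in the A- females, with 22.4 to 59.2 CPM, and *Elmo1* is lower in male KI, with 224 to 259 CPM, than in male WT mice, with 339 to 371 CPM.

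WASP and WAVE proteins pass the signal of Cdc42 and Rac on to the Arp2/3 complex, and WASP (*Was*) and HEM1 (*Nckap1l*), a subunit of the WAVE complex, are the forms of blood-derived cells. All 5 genes of this role were called higher in CD11b+ microglia than in cortex, with a log2FC from 2.99 (*Cyfip1*) to 4.88 (*Nckap1l*). *Nckap1l* was 432, 715, 636 and 674 CPM in CD11b+ microglia and 20.5, 23.2, 22.1 and 22.0 CPM in cortex of A+/Pwt/wt mice. In male CD11b+ microglia, *Nckap1l* was 808, 815 and 814 CPM in WT and 656, 566, 510.0 and 532 CPM in KI mice and was called lower (log2FC −0.52 ± 0.12, adjusted p = 0.023). *Wasf2*, encoding WAVE2, was 499, 513 and 490.5 CPM in male WT and 374, 372, 372 and 340.3 CPM in male KI mice and was also called lower (log2FC −0.46 ± 0.10, adjusted p = 0.0159). Neither gene overlapped between the male groups. With 1 library left out, the call of *Nckap1l* was kept only without KI mouse 84 or 104. That of *Wasf2* was kept only without KI mouse 84, 104 or 136, and it was lost without the count filter. The other 3 genes of the role were not called by edgeR with all libraries, with a log2FC of −0.37 (*Was*, adjusted p = 0.0757), −0.31 (*Cyfip1*, adjusted p = 0.123) and −0.25 (*Wipf1*, which encodes a partner that stabilises WASP, adjusted p = 0.0692). DESeq2's test called *Wipf1* lower (adjusted p = 0.0081). EdgeR without mouse 104 called *Was*, *Cyfip1* and *Wipf1* lower (adjusted p = 0.00936, 0.012 and 0.0269).

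In A+/Pki/ki females, the same 5 genes had a log2FC of 0.16 to 0.26 over A+/Pwt/wt mice, none called. *Nckap1l* was 432, 715, 636 and 674 CPM in A+/Pwt/wt and 749, 444, 850.0 and 900.3 CPM in A+/Pki/ki microglia, and *Wasf2* was 265, 369, 384 and 366 CPM and 445, 278, 501 and 482 CPM. In both genes, mouse 331 was the lowest A+/Pwt/wt and mouse 335 the lowest A+/Pki/ki library, and 3 of the 4 A+/Pki/ki values were above every A+/Pwt/wt value. *Was* was 56.1 to 111 CPM (median 84.7 CPM) in A-/Pwt/wt, 62.7, 79.7, 76.5 and 78.2 CPM in A+/Pwt/wt and 86.8, 66.4, 97.0 and 99.3 CPM in A+/Pki/ki females (log2FC 0.19 ± 0.14, adjusted p = 0.853 for A+/Pki/ki over A+/Pwt/wt). In males it was 111, 109 and 116 CPM in WT and 94.1, 102, 75.4 and 75.6 CPM in KI mice, without overlap. In cortex *Was* was only 3.25, 3.31, 4.07 and 2.07 CPM in A+/Pwt/wt mice (log2FC 4.62 ± 0.20, adjusted p = 6.97e-09).

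The small GTPases differed in their level by tissue. *Rac2*, the Rac of blood cells, was 95.3, 116, 107 and 107 CPM in CD11b+ microglia and 7.01, 6.09, 6.22 and 5.92 CPM in cortex of A+/Pwt/wt mice (log2FC 4.14 ± 0.11, adjusted p = 1.90e-09), whereas *Rac1*, the Rac of most cells, was 405, 428, 433 and 416 CPM and 256, 282, 295 and 269 CPM (log2FC 0.68 ± 0.10, adjusted p = 7.11e-05). The CPM of *Rac1* was 3.68 to 4.25 times that of *Rac2* in CD11b+ microglia and 36.5 to 47.5 times in cortex, not corrected for the length of both transcripts. Of the length of the *Rac1* exons, 51.4% overlaps exons of *Daglb* on the other strand. Reads were counted without regard to strand, so the *Rac1* values are uncertain to that extent, in a direction that is not known.

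*Rac2* was 1 of the 3 members with the smallest p between the APP/PS1 genotypes in CD11b+ microglia. The 4 A+/Pki/ki libraries had 133, 130.1, 151 and 150.0 CPM, all above the highest A+/Pwt/wt library, but the difference was not called (log2FC 0.37 ± 0.09, adjusted p = 0.853). The A-/Pwt/wt libraries had 72.9 to 142 CPM (median 121 CPM), a range that overlapped both A+ groups. Male WT mice had 131, 131 and 141 CPM and male KI mice 104, 142, 98.4 and 98.3 CPM. Here mouse 104 had the highest value of all males and the other 3 KI mice were below the WT mice (log2FC −0.28 ± 0.14, adjusted p = 0.189).

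*Rac1* did not separate the genotypes, with 460.3, 408, 542 and 510.2 CPM in A+/Pki/ki, 381 to 473 CPM (median 449 CPM) in A-/Pwt/wt, 407, 408 and 429 CPM in male WT and 372, 476, 326 and 403 CPM in male KI mice (log2FC 0.15 ± 0.11, adjusted p = 0.853 for A+/Pki/ki over A+/Pwt/wt, and log2FC −0.07 ± 0.14, adjusted p = 0.738 for male KI over WT). The other members of the role were *Cdc42*, which drives filopodia, *Rhoa*, which drives contraction, *Rhog*, which acts on Rac through ELMO and DOCK, and the kinases *Rock1* and *Rock2* that RhoA activates. All 7 genes had a log2FC above 0 in the female KI comparison (0.13 to 0.37) and below 0 in the male one (−0.28 to −0.07). None was called in either by edgeR with all libraries. Once mouse 104 was left out, edgeR called *Rac2*, *Rhog* and *Cdc42* lower in male KI mice (adjusted p = 0.00345, 0.0122 and 0.0335). *Rock2*, unlike *Rock1* (log2FC 1.87 ± 0.12, adjusted p = 1.55e-07), was not called between CD11b+ microglia and cortex (log2FC −0.27 ± 0.15, adjusted p = 0.124), and the ratio of *Rock2* to *Rock1* CPM was 1.70 to 2.14 in CD11b+ microglia and 6.84 to 9.55 in cortex.

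DOCK proteins load Rac or Cdc42 with GTP, and ELMO1 is a partner of some of them. *Dock2*, an exchange factor for Rac in blood cells, and *Dock8*, one for Cdc42, had the highest and the third highest log2FC of CD11b+ microglia over cortex (5.01 ± 0.19 and 4.87 ± 0.19), with *Nckap1l* between them. *Dock2* was 9.08, 9.68, 7.97 and 8.88 CPM and *Dock8* 8.61, 9.01, 7.97 and 8.29 CPM in A+/Pwt/wt cortex, where *Elmo1* was 118, 108, 121 and 120.4 CPM. In CD11b+ microglia of other mice of that genotype, *Dock2* was 189, 320.5, 279 and 306 CPM, *Dock8* 157, 258, 266 and 263 CPM and *Elmo1* 154, 232, 211 and 199 CPM, so that *Elmo1* stood out by its level in cortex (log2FC 0.84 ± 0.13, adjusted p = 1.53e-04).

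All 3 genes were called lower in male KI than in male WT microglia, as 3 of the 7 lower calls. *Elmo1* was 354, 339 and 371 CPM in WT and 256, 259, 227 and 224 CPM in KI mice (log2FC −0.56 ± 0.10, adjusted p = 0.00903), with the highest KI value well below the lowest WT value. *Dock2* was 310.3, 299.6 and 315 CPM in WT and 251, 221, 190.1 and 204 CPM in KI mice (log2FC −0.51 ± 0.12, adjusted p = 0.0183). *Dock8* was 362, 392 and 362 CPM in WT and 336, 238, 200.2 and 213 CPM in KI mice (log2FC −0.59 ± 0.17, adjusted p = 0.0462), and mouse 84 was the nearest to the WT mice for *Dock8* and *Dock2*. None of these groups overlapped. Over the fits with 1 library left out, the adjusted p ranged from 0.00209 to 0.0846 for *Elmo1*, from 0.00774 to 0.122 for *Dock2* and from 0.00531 to 0.196 for *Dock8*, with the log2FC below 0 throughout, and the genes were called in 4, 3 and 2 of these 7 fits.

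In A+/Pki/ki females, *Elmo1* was 239, 172, 301 and 307 CPM, *Dock2* 337, 186, 317 and 399 CPM and *Dock8* 301, 164, 316 and 376 CPM. For each gene, mouse 335 was the lowest of the group and lay within or below the range of the A+/Pwt/wt libraries, and none was called (log2FC 0.32 ± 0.20, adjusted p = 0.853 for *Elmo1*, 0.14 ± 0.25 for *Dock2* and 0.25 ± 0.26 for *Dock8*). In A-/Pwt/wt females they were 168 to 299 CPM (median 207 CPM), 165 to 322 CPM (median 213 CPM) and 157 to 339 CPM (median 220.5 CPM) in the same order. For the difference of the male and the female KI effect, *Elmo1* had a log2FC of −0.84 ± 0.24 (adjusted p = 0.143 with edgeR).

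Among the genes of filament turnover, *Tmsb4x* encodes thymosin β4, which holds monomers in reserve, *Pfn1* profilin, which feeds them to growing ends, *Cfl1* cofilin and *Gsn* gelsolin, which sever filaments, *Capg* a protein that caps their ends, and *Coro1a* coronin 1A of leukocytes. *Tmsb4x* had the highest level per kb of exon of all members in both tissues, 2053 CPM per kb in A+/Pwt/wt CD11b+ microglia and 425 CPM per kb in A+/Pwt/wt cortex. *Capg*, *Tmsb4x*, *Coro1a* and *Pfn1* were called higher in CD11b+ microglia than in cortex, with a log2FC of 4.03, 2.34, 1.78 and 1.62. *Cfl1* and *Gsn* were not (0.04 ± 0.12 and −0.29 ± 0.14).

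*Capg* was the member called between A+ and A- females. It was 22.4 to 59.2 CPM (median 49.0 CPM) in A-/Pwt/wt, 89.6, 98.7, 95.8 and 103 CPM in A+/Pwt/wt and 101, 96.7, 135 and 146 CPM in A+/Pki/ki microglia, so that every A+ library was above every A- library. The fitted fold was 2.03 for A+/Pwt/wt over A-/Pwt/wt (log2FC 1.02 ± 0.22, adjusted p = 0.047) and 2.52 for A+/Pki/ki over A-/Pwt/wt (log2FC 1.33 ± 0.24, adjusted p = 0.0184). The first call held in 1 of 11 fits with 1 library left out, that without mouse 223, and was lost without any of the other 10 (adjusted p 0.00409 to 0.175, log2FC 0.88 to 1.09). The second was lost without mouse 394 or 405. Between the A+ genotypes, *Capg* overlapped (log2FC 0.26 ± 0.14, adjusted p = 0.853), and in males without the transgenes it was 54.9, 45.5 and 49.2 CPM in WT and 47.5, 54.2, 41.2 and 49.5 CPM in KI mice (log2FC −0.05 ± 0.12, adjusted p = 0.782).

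*Coro1a* was 248 to 512 CPM (median 449 CPM) in A-/Pwt/wt, 312, 342, 340.0 and 349 CPM in A+/Pwt/wt and 396, 363, 482 and 452 CPM in A+/Pki/ki microglia, with all A+/Pki/ki values above all A+/Pwt/wt values and no call (log2FC 0.30 ± 0.11, adjusted p = 0.853). In males it was 481, 462 and 459.6 CPM in WT and 394, 546, 317 and 347 CPM in KI mice (log2FC −0.22 ± 0.18, adjusted p = 0.422), where mouse 104 exceeded and the other 3 KI mice fell short of the WT values. *Tmsb4x* followed the same order in males, with 2810.4, 2619.5 and 2754 CPM in WT and 2103, 3915, 1972 and 2062 CPM in KI mice (log2FC −0.12 ± 0.26, adjusted p = 0.782). Both genes were called lower in male KI mice by edgeR when mouse 104 was left out (adjusted p = 0.0138 for *Coro1a* and 0.0186 for *Tmsb4x*). In females *Tmsb4x* was 1702 to 3876 CPM (median 2685 CPM) in A-/Pwt/wt, 2925, 3139.9, 2838 and 2353 CPM in A+/Pwt/wt and 3154, 2973, 3769.5 and 3409 CPM in A+/Pki/ki mice, with overlap between all 3 groups (log2FC 0.20 ± 0.17, adjusted p = 0.853).

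Moesin (*Msn*) and ezrin (*Ezr*) tie filaments to the membrane. *Msn* was called higher in CD11b+ microglia than in cortex (log2FC 3.89 ± 0.18, adjusted p = 1.06e-08) and *Ezr* lower (log2FC −0.53 ± 0.19, adjusted p = 0.0264), and the ratio of *Ezr* to *Msn* CPM was 0.0341 to 0.111 in CD11b+ microglia and 1.27 to 1.58 in cortex of A+/Pwt/wt mice. *Ezr* was 53.8, 24.8, 39.8 and 43.0 CPM in A+/Pwt/wt and 33.2, 46.4, 19.4 and 14.7 CPM in A+/Pki/ki microglia, and thus ran opposite to most members, without a call (log2FC −0.53 ± 0.39, adjusted p = 0.853). Mouse 335 was the highest of the A+/Pki/ki libraries and mice 394 and 405 were the lowest of both groups. In males *Ezr* was 52.5, 42.8 and 53.9 CPM in WT and 87.4, 36.1, 84.3 and 62.3 CPM in KI mice (log2FC 0.44 ± 0.26, adjusted p = 0.272), with mouse 104 below and the other 3 KI mice above the WT values. It was called higher in male KI mice by edgeR without mouse 104 (adjusted p = 0.00969). In cortex it was 56.7, 68.4, 63.0 and 54.5 CPM in A+/Pwt/wt and 62.2, 65.9, 75.2 and 68.2 CPM in A+/Pki/ki mice, which overlapped (log2FC 0.15 ± 0.08, adjusted p = 0.9997).

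L-plastin (*Lcp1*) and fascin (*Fscn1*) bundle filaments, and VASP (*Vasp*), EVL (*Evl*) and the formins mDia1 (*Diaph1*) and FMNL1 (*Fmnl1*) lengthen them. *Lcp1* (4.65 ± 0.20) and *Vasp* (3.44 ± 0.14) had the largest log2FC of CD11b+ microglia over cortex in this role, and the ratio of *Evl* to *Vasp* CPM was 0.897 to 1.11 in CD11b+ microglia and 7.31 to 9.53 in cortex. *Fmnl1*, the formin of leukocytes, was 394, 419 and 435 CPM in male WT and 335, 349, 289 and 289 CPM in male KI microglia, without overlap, and was called lower (log2FC −0.40 ± 0.11, adjusted p = 0.042). That call was kept in 1 of 7 fits with 1 library left out, that without mouse 104. In A+/Pki/ki females it was 282, 206, 346 and 358 CPM against 189, 264, 253 and 289 CPM in A+/Pwt/wt (log2FC 0.22 ± 0.19, adjusted p = 0.853). In cortex, *Fmnl1* had the smallest p of the members, with 105, 124, 139.9 and 114 CPM in A+/Pwt/wt and 93.9, 113, 118 and 85.1 CPM in A+/Pki/ki mice, which overlapped (log2FC −0.25 ± 0.11, adjusted p = 0.9997).

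*Fscn1* came second to *Capg* by p between A+/Pwt/wt and A-/Pwt/wt microglia. It was 406 to 615 CPM (median 578 CPM) in A-/Pwt/wt and 328, 366, 370.3 and 407 CPM in A+/Pwt/wt mice. These groups touched only through mouse 223, the lowest of the A-/Pwt/wt libraries, and the difference was not called (log2FC −0.59 ± 0.15, adjusted p = 0.0986), but without mouse 223 it was called (log2FC −0.67, adjusted p = 0.00573), as it was by DESeq2's test (adjusted p = 9.00e-04). The A+/Pki/ki libraries overlapped both groups, with 429.7, 348, 545 and 499.9 CPM (log2FC −0.27 ± 0.17, adjusted p = 0.47 over A-/Pwt/wt).

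The letters GAGGAAGT, which resemble sites of the myeloid factor PU.1, were searched on both strands in the same promoters. They occurred in 4 of 46 (*Arpc1b*, *Elmo1*, *Fmnl1* and *Rhog*) and in 3.20% of all promoters, and no member promoter held both motifs. For *Fmnl1* and *Rhog* the match lay upstream of the start, and the stretch is printed 5′ to 3′ on the gene's strand with the match, here in the other orientation, in capitals, since both genes were higher in CD11b+ microglia than in cortex:
Fmnl1, chr11:103171068-103171115, plus strand: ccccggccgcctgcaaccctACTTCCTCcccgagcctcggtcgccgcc
Rhog, chr7:102250119-102250153, minus strand: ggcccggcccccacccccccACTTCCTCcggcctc
*Elmo1*, *Fmnl1*, *Rhog* and *Arpc1b* had a log2FC of 0.84, 1.11, 2.28 and 3.73 for CD11b+ microglia over cortex, on both sides of the members' median of 1.62.

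Both myosins, non-muscle myosin IIA (*Myh9*), which contracts filaments, and *Myo1f*, a class I myosin of leukocytes, were called higher in CD11b+ microglia than in cortex (3.30 ± 0.11 and 4.79 ± 0.20). *Myo1f* was 307, 300.4 and 289.8 CPM in male WT and 229, 256, 197 and 204 CPM in male KI microglia, without overlap, and was called lower (log2FC −0.43 ± 0.12, adjusted p = 0.0341). It was called in 1 of 7 fits with 1 library left out, that without mouse 104. In females it was 135 to 288 CPM (median 223 CPM) in A-/Pwt/wt, 232, 287, 279.8 and 353 CPM in A+/Pwt/wt and 315, 217, 278 and 382 CPM in A+/Pki/ki mice, all overlapping (log2FC 0.43 ± 0.20, adjusted p = 0.488 for A+/Pwt/wt over A-/Pwt/wt, and log2FC 0.01 ± 0.19, adjusted p = 0.988 for A+/Pki/ki over A+/Pwt/wt).

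Talin (*Tln1*), vinculin (*Vcl*) and paxillin (*Pxn*) couple filaments to integrins. All 3 were called higher in CD11b+ microglia than in cortex, with a log2FC of 3.58, 1.40 and 2.79, and edgeR with all libraries called none between genotypes. For male KI over WT, DESeq2's test called *Tln1* (adjusted p = 0.00961) and *Pxn* (adjusted p = 0.0183) lower. Without mouse 104, edgeR called *Tln1* and *Pxn* lower (adjusted p = 0.0376 and 0.0374) and *Vcl* higher (adjusted p = 0.00736). In the male comparison, *Tln1* and *Pxn* had a log2FC of −0.37 ± 0.13 and −0.25 ± 0.09 (adjusted p = 0.0735 and 0.0833), and *Vcl*, of opposite sign, of 0.31 ± 0.27. *Vcl* had the lowest level per kb but that of *Pstpip1*, with 3.35 CPM per kb in A+/Pwt/wt microglia, and exons of *Ap3m1* on the other strand overlap 25.5% of its exon length.

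The 3 leukocyte adaptors were called higher in CD11b+ microglia than in cortex. *Aif1* (IBA1), the gene of the common microglial stain, was 193, 242, 190.2 and 185 CPM in CD11b+ microglia and 8.24, 10.9, 8.21 and 8.62 CPM in cortex of A+/Pwt/wt mice (log2FC 4.56 ± 0.15, adjusted p = 2.77e-09). It did not separate the genotypes, with 117 to 268 CPM (median 213 CPM) in A-/Pwt/wt and 216, 204, 257 and 240.4 CPM in A+/Pki/ki females (log2FC 0.14 ± 0.12, adjusted p = 0.853 for A+/Pki/ki over A+/Pwt/wt), and 227, 199 and 216 CPM in male WT and 153, 277, 158 and 166 CPM in male KI mice (log2FC −0.18 ± 0.20, adjusted p = 0.563). Mouse 104 was again the highest of the male KI libraries, and the other 3 were below all WT libraries. With mouse 104 left out, edgeR called *Aif1* lower in male KI mice (adjusted p = 0.00466). In cortex *Aif1* was 8.86, 10.9, 8.39 and 8.55 CPM in A+/Pki/ki mice (log2FC 0.02 ± 0.12, adjusted p = 0.9997) and 5.29 CPM in the single A-/Pwt/wt library, below all 8 A+ libraries, which has no replicate.

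*Pstpip1*, an adaptor that binds WASP, had the smallest p of the members between the APP/PS1 genotypes, although it is the member with the lowest level per kb. It was 4.97, 6.65, 7.11 and 6.25 CPM in A+/Pwt/wt and 9.0, 9.76, 10.6 and 11.3 CPM in A+/Pki/ki microglia, without overlap (log2FC 0.66 ± 0.15, adjusted p = 0.853). Its log2FC was 0.57 to 0.73 over the fits with 1 library left out, with an adjusted p of 0.0832 to 0.9998 in edgeR, and DESeq2 called it as given above. The A-/Pwt/wt libraries had 3.69 to 11.9 CPM (median 8.93 CPM) and spanned both A+ groups. In males it was 8.53, 9.57 and 8.91 CPM in WT and 6.88, 7.49, 9.87 and 9.19 CPM in KI mice, which overlapped (log2FC −0.11 ± 0.17, adjusted p = 0.683), and the difference between both KI effects was −0.75 ± 0.21 (adjusted p = 0.143). In cortex it was 2.63, 2.10, 1.88 and 2.30 CPM in A+/Pwt/wt and 2.17, 2.76, 3.37 and 2.63 CPM in A+/Pki/ki mice (log2FC 0.28 ± 0.18, adjusted p = 0.9997), where the groups overlapped as well.

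*Lsp1*, a leukocyte protein that binds filaments, was second to *Capg* by p between A+/Pki/ki and A-/Pwt/wt microglia. It was 64.1 to 132 CPM (median 106 CPM) in A-/Pwt/wt, 118, 137, 120.2 and 126 CPM in A+/Pwt/wt and 147, 128, 186 and 165 CPM in A+/Pki/ki mice. The A+/Pki/ki values overlapped the A-/Pwt/wt values only through mice 335 and 236, and the difference was not called (log2FC 0.63 ± 0.18, adjusted p = 0.121), while DESeq2's test called it (adjusted p = 0.0254). Against A+/Pwt/wt it was not called either (log2FC 0.28 ± 0.12, adjusted p = 0.853).

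The same libraries recurred at the ends of the groups. Within the A-/Pwt/wt group, mouse 223 was the lowest for 28 of the 47 members and mouse 242 the highest for 21. Mouse 331 was the lowest A+/Pwt/wt library for 32 members and mouse 335 the lowest A+/Pki/ki library for 41, while mouse 394 was the highest for 26. Among male KI mice, mouse 136 was the lowest for 29 and mouse 104 the highest for 29. Mice 223, 331 and 335 also had the highest neuron scores of their groups, at 7.30, 5.97 and 6.25. Mouse 375, however, was close to mouse 331, at 5.95, and was the lowest A+/Pwt/wt library for only 2 members. Mouse 104, at 5.07, and mouse 136, at 5.60, did not stand at the ends of the male KI range of 4.62 to 5.82. Mouse 104 had the highest microglial marker score of the male KI libraries, 11.08 against 10.39 to 10.71, and mouse 136 the lowest. Members also differed in how much they varied over the 7 A-/Pwt/wt libraries, with a CV from 6.68% for *Actr3* to 67.9% for *Actr3b*.

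For context, 101 further genes of the same machinery were examined from a list written from general knowledge, with earlier results of these data known. In the male comparison, 12 of them were called higher and 19 lower in KI mice, beside 11.1% and 5.26% of all tested genes, so that the share called higher was near that of all genes. *Cyfip2* (log2FC 1.81 ± 0.28, adjusted p = 0.00513), *Pak3* (log2FC 1.52 ± 0.38, adjusted p = 0.0267) and *Wasf1* (log2FC 1.42 ± 0.36, adjusted p = 0.0283), which encode forms of WAVE and Rac effectors that are abundant in neurons, had the largest log2FC above 0. *Diaph2* (log2FC −0.62 ± 0.12, adjusted p = 0.0102), a formin, *Dock10* (log2FC −0.61 ± 0.10, adjusted p = 0.00632), an exchange factor, and *Ssh2* (log2FC −0.59 ± 0.15, adjusted p = 0.0282), a phosphatase of cofilin, had the largest below 0. The median log2FC of the 101 genes was 0.03.

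Between A+/Pwt/wt and A-/Pwt/wt females, *Myo1e*, a class I myosin, was called higher (log2FC 2.12 ± 0.18, adjusted p = 7.07e-05) and *Rac3*, a Rac of neurons, lower (log2FC −0.82 ± 0.18, adjusted p = 0.0459), and between A+/Pki/ki and A-/Pwt/wt females *Myo1e* was called higher (log2FC 1.96 ± 0.15, adjusted p = 4.52e-05) and *Tpm2*, a tropomyosin, lower (log2FC −0.97 ± 0.22, adjusted p = 0.0477). None of the 101 was called between the APP/PS1 genotypes in CD11b+ microglia or cortex, with a median log2FC of 0.03 and 0.00, and between the tissues 55 were called higher and 32 lower in CD11b+ microglia, beside 37.7% and 40.2% of all tested genes.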

How the data were processed

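The authors trimmed the reads with Trimmomatic 0.39 after quality control by FastQC 0.11.7, aligned them to GRCm38 with STAR 2.7.9a, and used featureCounts 2.12.0 in R 4.2.2 to count primary alignments that mapped once, without regard to strand. The deposited files hold these raw counts, not normalised, for 31 libraries and 55401 genes, and no sample column was left unused. The authors also deposited log2-scale variance-stabilized values, used here only as an alternative with limma 3.58.1. mRNA was selected with oligo(dT) beads, so reads lean towards polyadenylated RNA.

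Groups follow the labels of each sample. Libraries of 1 group were compared pairwise by chi-square, and none of 54 pairs agreed within sampling noise. The labels name 1 mouse for each library, and p-values measure the spread between these mice, technical spread included. Each of 7 comparisons was tested over all genes with edgeR 4.0.16 (quasi-likelihood test, two-sided, TMM, R 4.3.3) after a filter that asked for 10 or more counts in 3 or more fitted libraries. Genes were called at a Benjamini-Hochberg FDR of 0.05. Values after ± are standard errors of the log2FC, derived from the F statistic. CPM used TMM over all 31 libraries, and mean log2 CPM a prior count of 2. Total counts of 16.2 to 43.1 M left every member above the count minimum.

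The members and all gene lists were chosen with earlier results of these data known. Values in every library are given for up to 6 called members with the largest log2FC in each direction of a comparison, for the 3 with the smallest p where fewer than 3 were called, for the 3 most higher and 3 most lower between tissues, and always for *Actb*, *Aif1*, *Rac1*, *Rac2*, *Coro1a*, *Was*, *Arpc1b*, *Tmsb4x* and *Pstpip1*. Up to 3 called genes in each direction of a comparison are named from the wider list. Alternatives were DESeq2 1.42.0 (test and size factors), no count filter, limma, 1 fit of all groups, another prior count and each library left out. The tests were checked on simulated data. Coordinates and exon lengths came from Gencode M21 (GRCm38), matched by gene ID. By that annotation, 15 members have exons that overlap exons on the other strand and 2 on the same strand.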

Additional observations from a re-analysis of the deposited data

Results flagged for a closer look

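A library lay apart from the rest of its group in 14 of 138 sets of 4 to 7 libraries tested with Dixon's criterion. Chance alone meets it in about 1 in 20 single sets. Many of the 138 sets hold different genes of the same libraries, so they are not independent and their count cannot be judged by that share. Mouse 223 (A-/Pwt/wt, CD11b+) had the lowest *Arpc1b* at 191 CPM, *Rac2* at 72.9 CPM, *Coro1a* at 248 CPM and *Fscn1* at 406 CPM, and this library also had the highest neuron score. Among A+/Pwt/wt CD11b+ libraries, mouse 331 was apart with the lowest *Wasf2*, 265 CPM, and *Dock8*, 157 CPM, and mouse 367 with the highest *Aif1*, 242 CPM. Among male KI libraries, mouse 104 was apart with the highest *Rac2* at 142 CPM, *Tmsb4x* at 3915 CPM and *Aif1* at 277 CPM, and mouse 139 with the highest *Actr3b*, 12.6 CPM, and the lowest *Wasf2*, 340.3 CPM. In cortex, mouse 257 (A+/Pwt/wt) had the highest *Aif1*, 10.9 CPM, and mouse 203 (A+/Pki/ki) the highest *Myo1f*, 12.9 CPM. The cause was not tested.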

How the results depend on the processing

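No paired analysis was possible because the compared groups share fewer than 2 mouse numbers. No called value changed its direction. Of the other values (log2FC of single members, list scores and overlap counts), 2090 stayed on the same side of the threshold or within the spread. Of the rest, 56 were no longer past the threshold, 42 were newly past it and 8 moved beyond the spread. A change of sign without a call in either fit was counted as staying on the same side. Of the counts of called members, 163 stayed within 1.5 times the reported count and 33 did not. DESeq2's Wald test called 1 member higher for A+/Pki/ki over A+/Pwt/wt CD11b+ microglia, 1 higher (*Actr3b*) and 13 lower for male KI over WT (14.8% and 7.95% of all tested genes), 2 higher and 3 lower for A+/Pwt/wt over A-/Pwt/wt (2.14% and 1.53%), 2 higher for A+/Pki/ki over A-/Pwt/wt (3.48%), and 1 higher and 7 lower for the difference of the KI effects (4.64% and 2.08%). Without the count filter, 4 members were lower in male KI mice (1.97% of all tested genes). The cause was not tested.

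With 1 library left out, male KI over WT gave 0 to 4 members called higher and 0 to 26 lower. Leaving out WT mouse 94, 101 or 102 gave 0 lower (0.608%, 0.704% and 0.685% of all tested genes). Leaving out KI mice 139, 136 and 104 gave 1, 3 and 26 (1.76%, 3.72% and 13.3% of all tested genes). A+/Pwt/wt over A-/Pwt/wt gave 0 to 2 higher and 0 to 5 lower, with 2 and 5 without mouse 223 (1.41% and 1.47%). A+/Pki/ki over A-/Pwt/wt gave 0 to 2 higher, with 2 without mouse 335 (4.08%) and 0 without mouse 394 or 405. The difference of the KI effects gave 0 to 2 higher and 0 to 28 lower, the highest counts without mouse 335 (19.9% and 15.6% of all tested genes). Other scalings chosen after seeing the data (DESeq2 size factors, and TMM over the compared libraries) left 1 member with A+/Pwt/wt below A-/Pwt/wt without overlap and 2 with A+/Pki/ki above A-/Pwt/wt. They left 8 members with A+/Pki/ki above A+/Pwt/wt CD11b+ microglia. In males, they left 16 and 17 members with KI below WT (2404 and 2516 of 16373 tested genes). Every member passed the count minimum, and groups of 3 to 7 libraries limit the precision.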
